A study of Homo sapiens with 2 samples.

Results

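The genes described here encode 10 enzymes of serine synthesis and folate-dependent one-carbon metabolism, out of 39720 gene symbols in the deposited table. They were picked from that table by symbol: PHGDH, PSAT1 and PSPH of serine synthesis, SHMT1 and MTHFD1 of the cytosolic folate pathway, and SHMT2, MTHFD1L, MTHFD2, MTHFD2L and ALDH1L2 of the mitochondrial folate pathway. The set was selected on earlier values of the same comparison, in which MTHFD2, SHMT2 and ALDH1L2 were low, so the values below are a description and carry no test. All 10 enzyme genes had at least 30 counts in the higher of the libraries, the minimum for a gene to be assessed, as did 13850 genes in all.

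The cells were A549, an established human lung adenocarcinoma line whose KEAP1 gene is mutated and in which the transcription factor NRF2 is therefore active. One culture received lentivirus with a negative control hairpin (shNC) and the other lentivirus with a hairpin against DEPDC1B (shDEPDC1B), both with 5 µg/mL polybrene, and both were harvested on day 2. Each group has 1 RNA-seq library, with 18647290 counts in shNC and 18862371 in shDEPDC1B, so no value has a replicate check and the comparison is of a pair of libraries. The sources used here do not give the number of hairpins, any drug selection or any clone picking. The study asks what DEPDC1B does in lung adenocarcinoma, and its transcript had 329 counts in shNC and 39 in shDEPDC1B, a log2 ratio of -3.0 [-3.51, -2.52]. Square brackets hold 95% intervals throughout, exact for counting error when the rounded estimated counts are taken as reads counted. They contain no error of culture, of library preparation or of assigning reads to genes. In these bulk libraries, fewer cells of a kind and less RNA per cell cannot be told apart.

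The keratin genes KRT8 and KRT18 had between 97608 and 106007 counts in each library, and CDKN2A, which is deleted in A549, had 2 and 3. The other epithelial markers were lower, CDH1 with 3078 and 2649 counts, KRT19 with 429 and 475 and EPCAM with 37 and 65. Of 7 alveolar type II markers only ABCA3 (1750 and 1049 counts) was assessed. SFTPA1 and SFTPA2 were at 0, SFTPC had 1 and 0 counts and NKX2-1 had 0 and 2. Of 12 leukocyte, fibroblast and endothelial markers, CD14 (107 and 175 counts) and COL1A1 (99 and 105) were assessed, and PTPRC, CD3E, DCN, VWF and CDH5 had at most 2 counts in either library.

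Cells make serine from the glycolytic intermediate 3-phosphoglycerate through PHGDH, PSAT1 and PSPH. Serine hydroxymethyltransferase then moves a carbon of serine onto tetrahydrofolate and leaves glycine, SHMT1 mainly in the cytosol and SHMT2 in the mitochondrion. In mitochondria MTHFD2 or MTHFD2L oxidises the folate-bound carbon, MTHFD1L releases it as formate, and ALDH1L2 can oxidise it to carbon dioxide with gain of NADPH, while in the cytosol the trifunctional MTHFD1 takes up formate for purine and thymidylate synthesis. In lung cancer cells with active NRF2, the serine genes are known as targets of ATF4.

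Several enzymes have a counterpart in the other compartment, and MTHFD2 has the relative MTHFD2L in the same one. The closest coding stretches of these relatives are shown, to let the reader see how far short reads can separate them. Each stretch is the 60-base window with the fewest differences in the coding sequences of the longest coding transcripts in GENCODE 29 (GRCh38), written 5′ to 3′ in the sense of the gene, and capitals mark the bases that differ within a pair. Positions count from the A of the start codon.
SHMT2 coding bases 547 to 606: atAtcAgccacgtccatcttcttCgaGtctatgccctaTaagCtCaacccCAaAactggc
SHMT1 coding bases 478 to 537: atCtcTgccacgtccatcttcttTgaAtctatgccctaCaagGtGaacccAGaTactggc
MTHFD2 coding bases 899 to 958: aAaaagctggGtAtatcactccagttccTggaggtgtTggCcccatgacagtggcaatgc
MTHFD2L coding bases 941 to 1000: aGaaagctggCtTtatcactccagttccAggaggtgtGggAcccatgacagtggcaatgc
MTHFD1L coding bases 2112 to 2171: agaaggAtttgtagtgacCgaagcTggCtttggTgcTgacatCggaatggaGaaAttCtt
MTHFD1 coding bases 2151 to 2210: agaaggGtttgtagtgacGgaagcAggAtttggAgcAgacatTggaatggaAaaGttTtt
Even these windows differ at 10 bases for SHMT2 and SHMT1, 6 for MTHFD2 and MTHFD2L and 10 for MTHFD1L and MTHFD1. Over the aligned coding bases the identity was 67.3%, 69.8% and 65.1%, and the longest identical run between the whole transcripts was 18, 20 and 14 bases. None of these relatives shared a run of 50 bases.

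Transcripts of 4 of the 5 mitochondrial enzyme genes were lower in shDEPDC1B, most of all MTHFD2, ALDH1L2 and SHMT2, each more than 3-fold, and that of MTHFD2L was not. The first enzymes of serine synthesis, PHGDH and PSAT1, and the cytosolic MTHFD1 lay within 1.5-fold of the control, and the cytosolic SHMT1 was higher. In all, 5 of the 10 enzyme genes were lower and 1 was higher by at least 1.5-fold with an interval that excludes equality, the rule for those words here. Of all assessed genes 19.6% were lower and 19.2% higher by the same rule, and nothing is read from the enzymes' counts because they were selected on this contrast. Lower genes made up 50.4% of all genes past the rule, and 61.2% with plain library totals in place of TMM scaling. The median log2 ratio of the 10 was -0.35, and that of all assessed genes was 0.04.

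**Figure D1:**
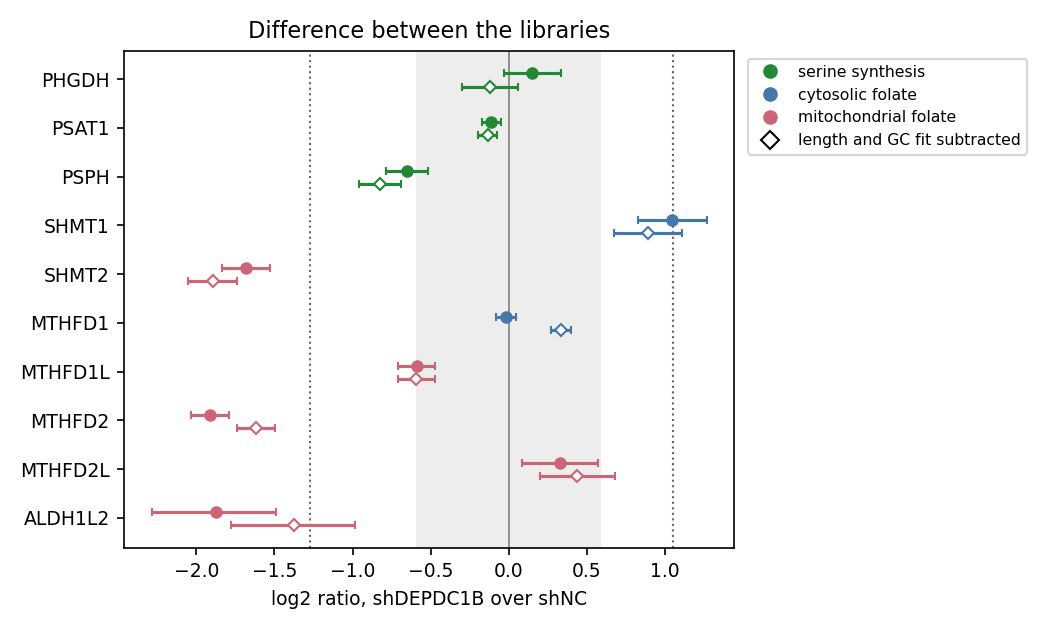
Log2 ratio (x axis) of each enzyme gene (y axis), shDEPDC1B over shNC, with 95% counting intervals. Filled circles are scaled counts and open diamonds the same after a fit on transcript length and GC content was subtracted. The grey band is 1.5-fold and the dotted lines are the 5th and 95th percentiles of all assessed genes (-1.27 and 1.05). MTHFD2, ALDH1L2 and SHMT2, low in the earlier values on which the set was selected, lie to the left of the lower line.

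Among the mitochondrial enzymes, MTHFD2 lies on chromosome 2 (74198562 to 74217565, plus strand; all such positions are GENCODE 29 on GRCh38) and had 2740 counts in the control and 688 with the DEPDC1B hairpin. Scaled for depth as CPM, counts relative to the TMM-scaled library total, these are 142 and 37.7, a 3.77-fold lower level [3.46, 4.10]. MTHFD2 is the mitochondrial dehydrogenase and cyclohydrolase of embryonic and tumour cells. Of the assessed genes 1.36% had a log2 ratio as low as its -1.91. The set was selected with MTHFD2, ALDH1L2 and SHMT2 known to be low. Nothing is therefore read from this share or from those of ALDH1L2 and SHMT2 below.

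ALDH1L2 (chromosome 12, 105019784 to 105084577, minus strand), the mitochondrial 10-formyltetrahydrofolate dehydrogenase, had 264 and 68 counts, or 13.7 and 3.73 CPM. It was 3.67-fold lower [2.80, 4.87], with the widest interval of the 10 enzyme genes. Its log2 ratio was -1.88, a value that 1.40% of assessed genes reached. SHMT2 (chromosome 12, 57229327 to 57234935, plus strand) had 1490 and 440 counts, or 77.3 and 24.1 CPM, and was 3.2-fold lower [2.88, 3.57], with 2.25% of assessed genes as low.

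MTHFD1L (chromosome 6, 150865549 to 151101887, plus strand), which releases formate, had 1523 and 959 counts, or 79.0 and 52.6 CPM. At 1.5-fold lower [1.39, 1.63] it stood at the limit of the rule, and with a trend on mean expression subtracted it was outside it (log2 ratio -0.55). The MTHFD2 paralog MTHFD2L (chromosome 4, 74114174 to 74303099, plus strand), described mostly from adult tissues, was the only mitochondrial enzyme gene of the set with a ratio above 1. It had 263 and 312 counts, or 13.6 and 17.1 CPM, a log2 ratio of 0.33 [0.08, 0.57], within 1.5-fold.

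Of the cytosolic enzymes, MTHFD1 (chromosome 14, 64388031 to 64463457, plus strand) had 4046 and 3788 counts, or 210 and 208 CPM. Its log2 ratio was -0.01 [-0.08, 0.05], an interval that spans equality with TMM scaling. With plain library totals the log2 ratio of MTHFD1 was -0.11. After the fit on length and GC content it was 0.34 [0.27, 0.40]. SHMT1 (chromosome 17, 18327860 to 18363563, minus strand) had 262 and 512 counts, or 13.6 and 28.1 CPM, a ratio of 2.06 [1.78, 2.41]. As high a ratio was found in 5.13% of assessed genes. The deposited values of SHMT1, 262.325 and 511.745, are not whole hundredths and become so when multiplied by 2, as a mean over 2 gene copies would. Its counts may therefore be 524.65 and 1023.49, which leaves the ratio as it is and makes the interval given here too wide.

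Serine synthesis showed a different order. PHGDH (chromosome 1, 119648411 to 119744226, plus strand), the entry enzyme, had 493 and 518 counts, or 25.6 and 28.4 CPM, a log2 ratio of 0.15 [-0.03, 0.33] that counting error spans. PSAT1 (chromosome 9, 78297143 to 78330093, plus strand), the aminotransferase of the next step, had 4675 and 4094 counts, or 242 and 224 CPM, a log2 ratio of -0.11 [-0.17, -0.05]. The interval excludes equality but the size is 1.08-fold. PSPH (chromosome 7, 56011051 to 56051604, minus strand), the phosphatase of the last step, had 1213 and 731 counts, or 62.9 and 40.1 CPM, and was 1.57-fold lower [1.43, 1.72].

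Levels of different genes were compared per length, as CPM per kb of the longest coding transcript. In shNC, PSAT1 was highest at 111 CPM per kb [108, 114]. MTHFD2 at 31.9 [30.7, 33.1], MTHFD1 at 30.8 [29.9, 31.8] and SHMT2 at 30.5 [28.9, 32.1] followed, with overlapping intervals, and PSPH at 28.9 [27.3, 30.6] overlapped MTHFD1 and SHMT2. MTHFD1L was next at 21.9, then PHGDH at 9.89, MTHFD2L at 5.80 and SHMT1 at 5.51, a pair that overlapped, and ALDH1L2 at 1.81 [1.60, 2.05].

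In shDEPDC1B the levels per length had another order below PSAT1, which stayed highest at 103 CPM per kb. MTHFD1 at 30.5 was next, followed by PSPH at 18.4, MTHFD1L at 14.6, SHMT1 at 11.4 [10.4, 12.4] and PHGDH at 11 [10.1, 12]. SHMT2 went from the fourth place to the seventh, at 9.51 [8.64, 10.4], and overlapped PHGDH. MTHFD2 went from the second to the eighth, at 8.46 [7.84, 9.12], overlapping both SHMT2 and MTHFD2L at 7.27 [6.48, 8.12]. ALDH1L2 was lowest in both libraries, at 0.494 CPM per kb in shDEPDC1B. With SHMT1 taken as the sum of 2 copies its level was 11 CPM per kb in shNC, above PHGDH, and 22.8 in shDEPDC1B, above PSPH and the third highest.

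**Figure D2:**
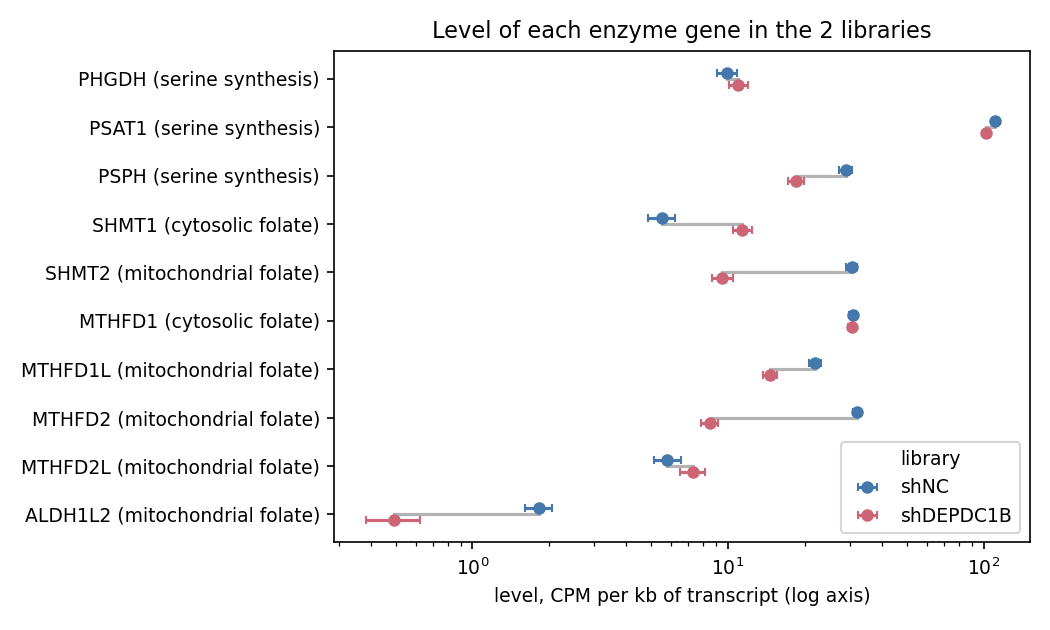
Level of each enzyme gene (y axis) in CPM per kb of the longest coding transcript (x axis, log scale), shNC in blue and shDEPDC1B in red, with 95% counting intervals. PSAT1 is highest and ALDH1L2 lowest in both libraries, and the widest gaps are those of MTHFD2, ALDH1L2 and SHMT2.

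Summed per length, the 5 mitochondrial enzyme genes stood at 91.9 CPM per kb in shNC and 40.3 in shDEPDC1B. The 2 cytosolic genes summed to 36.3 and 41.9, and the 3 serine synthesis genes to 150 and 132. Transcripts of the mitochondrial enzymes made up 33.1% of the 10 genes' summed level in shNC and 18.8% in shDEPDC1B. Those of the cytosolic enzymes made up 13.1% and 19.5%. With SHMT1 as the sum of 2 copies the cytosolic sums were 41.8 and 53.2 CPM per kb, or 14.8% and 23.6%. The sums also depend on transcript length: MTHFD2 has coding transcripts with a median of 1.865 kb against a longest one of 4.456 kb, and by the median its level was 76.2 and 20.2 CPM per kb, the second and the third highest.

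Ratios between enzymes inside a library do not depend on how the libraries were scaled. SHMT2 had 5.69 times the counts of SHMT1 in shNC and 0.859 times in shDEPDC1B, so the ratio was lower by a factor of 6.62 [5.49, 7.98]. With SHMT1 taken as the sum of 2 copies the ratios were 2.84 and 0.430, and SHMT2 passed from above SHMT1 to below it in either reading. Of the mitochondrial dehydrogenases, MTHFD2 had 10.4 times the counts of MTHFD2L in shNC and 2.21 times in shDEPDC1B, lower by a factor of 4.73 [3.91, 5.70].

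Against the cytosolic MTHFD1, with 4046 and 3788 counts, MTHFD2 went from 0.677 to 0.182 of its counts, lower by a factor of 3.73 [3.39, 4.11]. The change for MTHFD1L over MTHFD1 was smaller, from 0.376 to 0.253, lower by a factor of 1.49 [1.36, 1.63]. In log2 it was -0.57, and -0.93 with a fit on transcript length and GC content subtracted. For ALDH1L2 and its cytosolic counterpart ALDH1L1 no direction could be seen, because ALDH1L1 had 12 and 3 counts and the log2 change of 0.04 had an interval from -1.90 to 2.55.

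**Figure D3:**
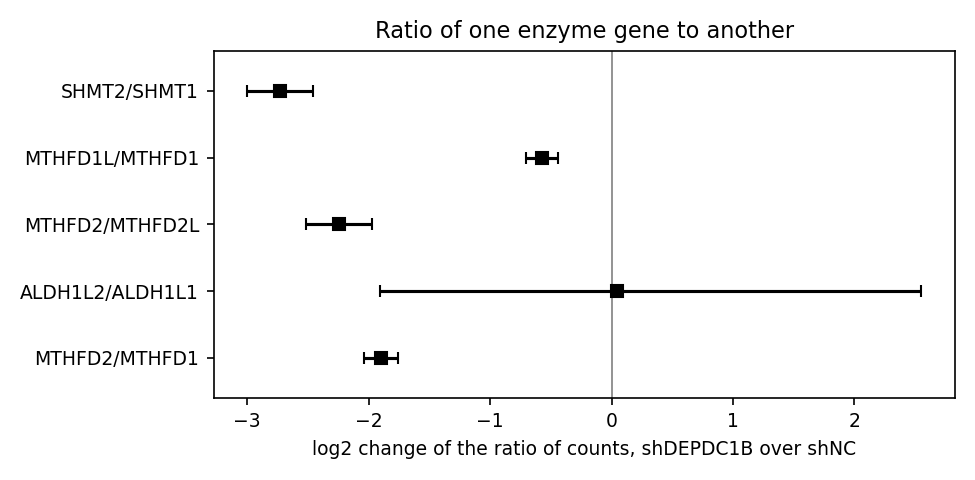
Log2 change of the ratio of counts of 2 enzyme genes, shDEPDC1B over shNC (x axis), for 5 pairs (y axis), with exact conditional 95% intervals. The ratio of SHMT2 to SHMT1 lies farthest from 0, and the interval of ALDH1L2 to ALDH1L1 spans 0.

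The difference between the libraries moved with transcript length over all genes. Genes with transcripts of up to 1434 nucleotides, the shortest of 10 equal classes, had a median log2 ratio of 0.56, against -0.62 for the longest class. By the longest coding transcript, ALDH1L2 (7547 nucleotides) and MTHFD2 (4456) are long, while SHMT2 (2537), PSPH (2178) and SHMT1 (2464) lie below the median of 3403. The median coding transcript of MTHFD2 is 1.865 kb, so its adjusted value rests on the longest one being taken. After a linear fit on length and GC content was subtracted, the log2 ratio was -1.90 for SHMT2, -1.62 for MTHFD2, -1.38 for ALDH1L2, -0.82 for PSPH, -0.59 for MTHFD1L and 0.89 for SHMT1. All 6 calls were the same after the fit, beside 13.5% of 13020 genes lower and 13.0% higher. PHGDH went from 0.15 to -0.12 and MTHFD1 from -0.01 to 0.34, both within 1.5-fold, the latter with a transcript taken as 6814 nucleotides long.

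**Figure D4:**
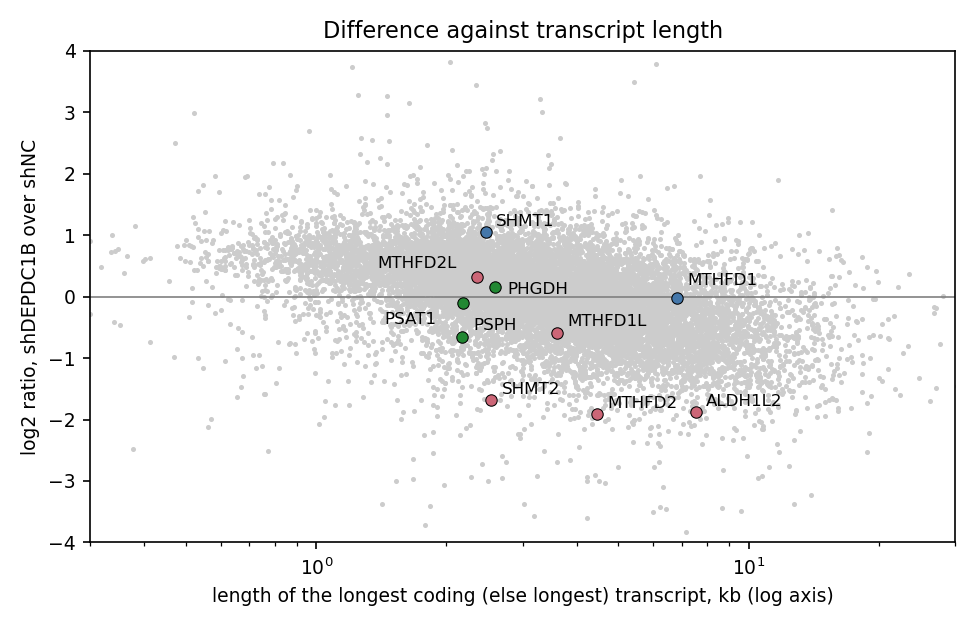
Log2 ratio (y axis) against transcript length in kb (x axis, log scale) for 13020 assessed genes with a known length (grey, 41 outside the axes) and the enzyme genes (green for serine synthesis, blue for cytosolic and red for mitochondrial folate). SHMT2 and MTHFD2 lie low among genes of their length, taken from the longest coding transcript, and SHMT1 lies high.

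Neighbours on the opposite strand overlap some of these genes, and the sources used here do not say whether counting used strand, so reads there cannot be assigned with certainty. SLC4A5 covers 29.7% of the longest MTHFD2 transcript and had 138 and 77 counts, far fewer than MTHFD2, with a log2 ratio of -0.76 [-1.18, -0.35]. SMCR8 covers 7.4% of the SHMT1 transcript, and at 634 and 260 counts it was lower (-1.21) where SHMT1 was higher. The pseudogene row MTHFD2P1 held 9.59 and 4.34 deposited counts, and adding them left the MTHFD2 log2 ratio at -1.91. Of its runs of 50 bases, read on either strand, MTHFD2 shared the most with other genes, 35.7%, chiefly with SLC4A5. SHMT2 shared 10.7%, all of them with its neighbour AC137834.2, PSPH 8.4%, SHMT1 8.2% and MTHFD1 7.95%, while MTHFD1L shared 0.2% and PHGDH none. The part of these overlaps in the results was not tested.

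The remaining genes of the pathway come from lists made by function, with earlier results of these data known. The most abundant gene of a list is the one with the highest CPM over both libraries together, not divided by length. Each list's counts stand beside 19.6% of all assessed genes lower and 19.2% higher. After the length and GC fit these shares were 13.5% and 13.0%. Of 12 assessed genes of folate reduction, transport and storage, 1 was lower and 2 higher, with a median log2 ratio of 0.14. DHFR2, which reduces folate in mitochondria, had 281 and 88 counts and was at -1.59 [-1.96, -1.25]. FPGS, which adds the glutamate tail that keeps folates in the cell, was at 0.72 (531 and 829 counts), and GGH, which removes it, at 0.66 (886 and 1324), and neither passed 1.5-fold after the length and GC fit. With library totals 1 of them did. Thymidylate synthase TYMS, the most abundant, was at 0.33 [0.24, 0.42] and the mitochondrial folate carrier SLC25A32 at 0.03 [-0.11, 0.17].

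Of 8 assessed genes of glycine cleavage and mitochondrial serine entry, 2 were lower and 1 higher (median 0.16). GLDC, the glycine decarboxylase that also feeds carbons into mitochondrial folate, had 1290 and 749 counts, a log2 ratio of -0.70 [-0.84, -0.57]. GATM, which uses glycine for creatine synthesis, was at -0.82 (147 and 79 counts). SFXN2 was at 1.0 (93 and 176 counts), while SFXN1, the serine carrier of the mitochondrial inner membrane and the most abundant of this list, was at 0.15 [0.08, 0.21].

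In the methionine cycle and transsulfuration list 2 of 10 genes were lower and 3 higher (median 0.00). Methionine synthase MTR, which takes its methyl group from folate, had 1273 and 435 counts, or -1.47 [-1.63, -1.31] in log2, and with the length and GC trend subtracted -0.88. Its reactivating reductase MTRR stood on the other side, at 0.64 [0.48, 0.80] with 547 and 807 counts. AHCYL2 was at -0.68, which the fit brought to -0.43. CTH, which makes cysteine from cystathionine, was at 0.88 and MAT1A, with 19 and 34 counts, at 0.92 [0.07, 1.81], which was not called after the fit. With library totals 1 gene of this list was higher in place of 3. The most abundant gene, AHCY, was at 0.33 [0.29, 0.38].

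Purine synthesis consumes formyl groups carried by folate, and 0 of its 13 assessed genes were lower by the rule, from IMPDH1 at -0.38 upwards, before the length and GC fit and 1 after it (IMPDH1, -0.69). ADSSL1 was higher at 0.89, with 73 and 128 counts, but not after the fit (0.52), when ADSL (0.61) and GMPS (0.72) were higher instead. The formyl-using enzymes GART and ATIC were at -0.35 and 0.05, though the deposited GART value, like that of SHMT1, looks like a mean over 2 copies. PAICS, the most abundant, was at -0.13 [-0.19, -0.07], and the median of the list was -0.12.

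ATF4 had 2575 and 2015 counts, or -0.27 [-0.36, -0.19] in log2, and with the length and GC trend subtracted -0.61. Of 26 assessed genes of the ATF4 amino acid response that are not among the 10 enzymes, ATF4 included, 6 were lower and 6 higher, with a median of -0.03. Either count is 23.1% of the list, near the 19.6% lower and 19.2% higher of all assessed genes. Lower were the transporters SLC7A1 (1605 and 352 counts), SLC7A11 (-1.22), SLC7A5 (-0.62), SLC38A2 (-0.70) and SLC6A9 (-0.87) and the transcription factor ATF5 (-0.75), with SLC7A5 the most abundant. Higher were CEBPB (0.99), CTH (0.88), DDIT3 (0.85), PCK2 (0.83, with values that also look like a mean over 2 copies), SESN2 (0.76) and the proline enzyme PYCR1 (0.73). CTH is also counted in the methionine cycle and transsulfuration list. Asparagine synthetase ASNS, a standard ATF4 target, was at -0.24 [-0.36, -0.12]. Of these 12 calls 6 were the same once length and GC had been fitted. Then 6 of 26 genes were lower and 2 higher, SESN2 and CTH, beside 13.5% lower and 13.0% higher of all fitted genes. SLC7A11 (-0.48) and SLC38A2 (-0.30) were no longer past 1.5-fold, while ATF4 and ATF3 (-0.79) were.

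Among 11 assessed regulators of these genes, 1 was lower and 1 higher (median -0.08), and ATF4 was also lower after the length and GC fit. EIF2AK3, the kinase PERK that acts upstream of ATF4 translation, had 747 and 209 counts, a log2 ratio of -1.76 [-1.99, -1.53]. KEAP1, the adaptor that marks NRF2 for degradation, had 1032 and 2020 counts, at 1.05 [0.94, 1.16]. NFE2L2, which encodes NRF2, was at -0.03 [-0.11, 0.05], MYC at 0.22 [0.13, 0.30] and the amino acid sensor kinase EIF2AK4 at -0.32 [-0.42, -0.22]. EIF2S1, the most abundant, was at -0.08 [-0.14, -0.01].

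**Figure D5:**
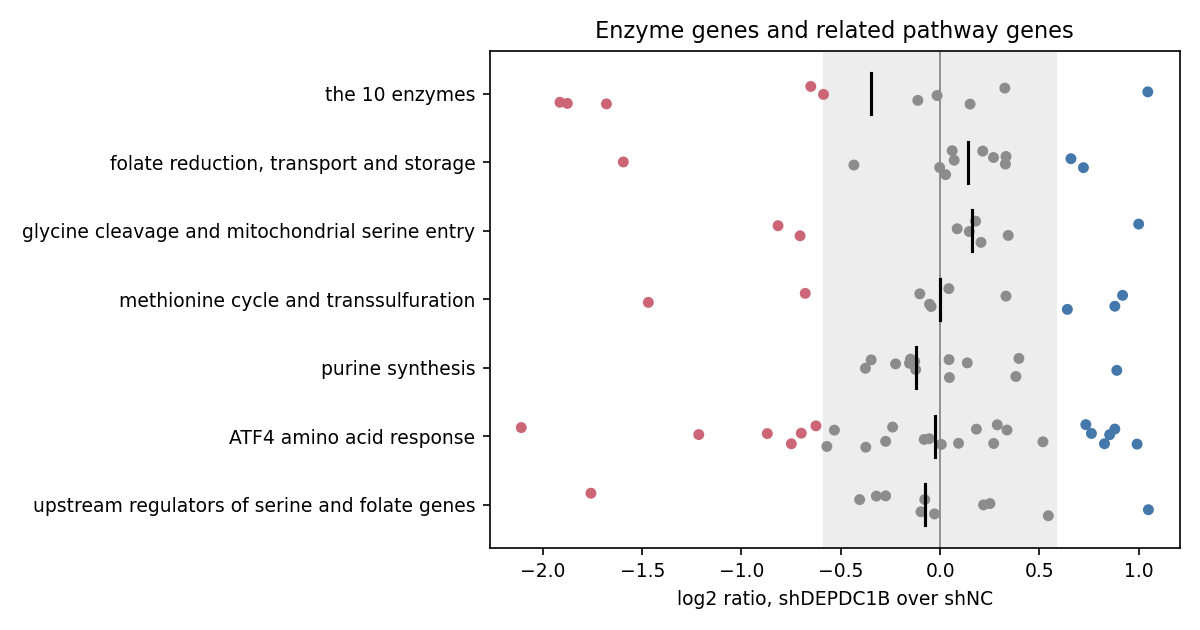
Log2 ratio, shDEPDC1B over shNC (x axis), of the assessed genes of each list (y axis, 1 point a gene, spread vertically for sight). Red points are lower and blue points higher by at least 1.5-fold with an interval that excludes equality, the grey band is 1.5-fold and black bars are medians. The enzymes, which were selected on this contrast, have their median at -0.35. The medians of the other lists lie between -0.12 and 0.16.

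Promoter sequences from RefSeq (GRCh38.p14) were at hand for 7 of the 10 enzyme genes, with 11 annotated starts, and for PSPH, SHMT2 and ALDH1L2 none was in the table. The 250 bases before each start were searched on both strands for TGATGNAA, the composite element that ATF4 binds with C/EBP proteins. Only MTHFD1L had a match, 129 bases before one of its 4 starts and 90 before another, which is the same place in the genome (chr6:150866346-150866375, plus strand, with the match in capitals).
MTHFD1L: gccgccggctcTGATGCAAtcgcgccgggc
Of all 35116 promoters of this length, 3.14% held such a match, and 3.89% of genes had a promoter with it. The windows of MTHFD2, PSAT1 and PHGDH held none, and bases after the starts were not searched. The E-box CACGTG, which MYC binds, was found before MTHFD1 and before 2 of the starts of MTHFD1L, there again at the same place in the genome. It was in 6.34% of all promoters, and 7.73% of genes had a promoter with it. TGACNNNGC, the core of the element that NRF2 binds, was in none of the 11 windows and in 10.9% of all promoters. These matches describe the letters of the windows and were not set against binding.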

How the data were processed

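RNA sequencing of 2 A549 libraries was analysed. The authors deposited a table of estimated counts for gene symbols, made with Bowtie2 and RSEM on hg38 per the submitters' processing notes. The sources used here do not give versions, annotation or strandedness. The values, unscaled as deposited, were rounded here to whole numbers. Effective totals were set with TMM factors (1.03 and 0.967) from edgeR 4.0.16 in R 4.3.3. With 1 library a group no test was possible, and none is reported. Ratios of scaled counts carry an exact Clopper-Pearson 95% interval (scipy 1.17.1), and the pair ratios an exact conditional one. Reads have no molecular identifiers, so intervals cover counting error only. Genes needed 30 counts in the higher library. Deposited values of 699 genes were not whole hundredths (tolerance 0.001 hundredths). Transcript length and GC came from GENCODE 29, known for 94.0% of assessed genes. The interval steps were tested on simulated data.

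The members and lists were chosen with earlier results of these data known. Named were all 10 members, DEPDC1B and pseudogene rows, and from each list the most abundant gene and each one past 1.5-fold. Other genes, overlapping neighbours and markers included, were named after their values were seen, and some genes of the lists are not reported here. Alternatives covered scaling (DESeq2 1.42.0 size factors, upper quartiles and library totals among them), filters, thresholds, a prior count of 2, rounding and trends on length, GC and expression. Those that leave out SHMT1, sum its copies or use another transcript length, and the search for CACGTG and TGACNNNGC, were added after the data were seen.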

Additional observations from a re-analysis of the deposited data

How the results depend on the processing

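Each library stands alone, so every result rests on both and none could be left out. No paired analysis was possible because each group has 1 library. The direction of 8 of the 10 enzyme genes was the same under all alternatives run, and PHGDH and MTHFD1 changed sign with the length and GC fit (-0.12 and 0.34). With a loess on mean expression 4 genes were lower, without MTHFD1L, and at a 2-fold threshold 3 were lower (MTHFD2, ALDH1L2 and SHMT2), beside 8.97% of assessed genes lower and 5.86% higher. With no filter beyond a count above 0 these shares were 12.9% and 11.8%. Scaling by library totals moved the median of the enzymes to -0.45 and the lower share of all called genes from 50.4% to 61.2%. Without SHMT1 the median was -0.59 and 0 genes were higher. By the median coding transcript the highest level, that of PSAT1, was 135 CPM per kb in shNC and 125 in shDEPDC1B. Rounding, a prior count of 2 and the pseudogene row moved no pair ratio beyond its interval. The length and GC fit moved the log2 change of MTHFD1L over MTHFD1 from -0.57 to -0.93, beyond its interval of -0.71 to -0.44. The other pairs stayed within theirs. Depth limits ALDH1L1, with 12 and 3 counts.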
